A study of Bos taurus with 8 samples.

Results

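A single tiled stretch of bovine chromosome 21, from 65721186 to 65899733 on Btau_3.1, was followed through arrays of methyl-CpG-enriched DNA from the arcuate nucleus of 8 female heifers. Every probe of the array design with a start inside these bounds was taken, which gave 303 of the 10249 non-control probes. High-gain animals (heifers 1 to 4) were raised on a diet meant to add 1 kg of body weight daily, and low-gain animals (heifers 5 to 8) on one meant to add 0.5 kg. Feeding ran over the ages of 4.5 to 8.5 months, and the nucleus was collected at the end of it. Each heifer gave 1 array, on which her enriched DNA (Alexa Fluor 647, red) and her own total, or input, DNA (Alexa Fluor 555, green) were hybridised together. The study compared the feeding schedules, and no heifer outside them was used as a control.

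The stretch drew attention because 3 of the 13 runs of neighbouring probes that separated the feeding groups on the whole array lie in it. It was thus chosen by measured values of the high-gain against low-gain contrast of these same arrays, and everything on that contrast is given below as a description, with no test. The level of the stretch relative to the rest of each array, its slope and its spread use both groups together, and those were tested. The probes of the runs are low in the low-gain group and enter these tests, which are therefore not wholly free of that choice. Neither a gene nor an exon, intron or UTR is assigned to these positions, because the annotation at hand is of another assembly. The cell make-up of the tissue could not be checked against markers on DNA arrays.

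In mammals, methyl groups are placed on the cytosine of CpG dinucleotides, and DNA methyltransferases copy them to the new strand when a cell divides. Methylated CpG at promoters often goes with silent genes, while gene bodies and repeats are commonly methylated in active and quiet tissue alike. A methyl-CpG binding domain protein holds double-stranded fragments that carry methylated CpG, so a fragment rich in such sites is overrepresented in the enriched fraction. The arcuate nucleus is the part of the hypothalamus whose neurons sense body energy stores and act on appetite and on the release of reproductive hormones.

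Ratios, signals and differences are on the log2 scale. The enriched-to-input ratio is relative to the median probe of its array, so 0 stands for that probe and not for unmethylated DNA, and the enriched and input signals are each relative to their own array median. A DNA sample of whole tissue averages its cells, so fewer methylated cells and less methylation per cell cannot be told apart. Over the 8 arrays, 54.8% to 76.9% of the probes of the stretch were well above background, by the scanner software's own test, in the enriched channel and 82.8% to 94.4% in the input channel. The enriched share was 72.6% to 76.9% in the high-gain and 54.8% to 70.0% in the low-gain heifers, with no overlap. Over the other probes of the array its group means were 73.8% and 62.2%, so this gap was not particular to the stretch. Low-gain heifer 8 had the lowest enriched share, and 28 of the 303 probes failed that test on every array. No spot of the stretch was saturated and 1 was left out as an outlier. The low-gain arrays 6, 7 and 8 stood apart: within the stretch their ratios correlated with each other at 0.574 to 0.724 across probes, against 0.060 to 0.216 among the high-gain arrays and 0.105 to 0.184 between low-gain heifer 5 and arrays 6, 7 and 8. High-gain arrays correlated with arrays 6, 7 and 8 at -0.014 to 0.347, highest for high-gain heifer 3 (0.241, 0.347 and 0.339). Over the remaining probes of the array the low-gain arrays 6, 7 and 8 correlated with each other at 0.573 to 0.666. These are descriptions across probes that share arrays and base composition, and results on the feeding groups are given with low-gain heifer 5 apart.

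The probes covered 178548 bp with a median distance of 376.5 bp between starts and a mean length of 50.4 bases. Of the 303 probes, 298 fell into 28 regions, a region being at least 3 probes with starts no more than 1000 bp apart, and 5 lay in shorter groups. The stretch was isolated: the nearest other probe of chromosome 21 started 58847035 bp before it, and no probe of the design followed it on the chromosome. At its edges, the first probe (65721186) had a mean ratio of -0.57 and a difference, high-gain minus low-gain, of 2.76, and the last probe (65899673) had -1.15 and 0.52. The last probe before the gap (start 6874151) had -0.28 and 0.67.

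The mean ratio over the 303 probes lay close to the array median. It was 0.00, -0.11, -0.17 and 0.11 in high-gain heifers 1 to 4 and -0.07, -0.22, -0.06 and -0.33 in low-gain heifers 5 to 8. The values of both groups were interleaved, with high-gain heifer 4 highest and low-gain heifer 8 lowest. The level, taken as the mean of both group means, was -0.11 with a standard error of 0.06 and did not pass the test against the array median (limma, Benjamini-Hochberg adjusted p = 0.173 over 97 loci). With normexp background correction it was -0.14 and passed (limma, adjusted p = 0.00906). On the array as a whole 7.22% of loci were called above and 34% below the median. The stretch was 43rd from the lowest of the 97. A few other stretches, chosen by position and not matched for size, were set beside it without a test of the difference. The other chromosome 21 stretch (589 probes from 6564416) had a level of -0.11 (limma, adjusted p = 0.114). The chromosome 5 stretch (385 probes from 51726181) had -0.23 (limma, adjusted p = 0.0284) and the chromosome 2 stretch (313 probes from 54397587) had -0.31 (limma, adjusted p = 0.0177), both below the array median.

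Within each array the stretch was then set against all other probes, with exact sign-flip permutation tests over the 8 arrays, two-sided, in which no p can fall below 0.0078. The mean ratio of the stretch minus that of the other probes was 0.01 ± 0.14 (SD, n = 8; exact permutation p = 0.914, adjusted p = 0.914 over 5 tests) and was above 0 on 3 of 8 arrays. The interval between the quartiles of the ratios, stretch minus other probes, was -0.14 ± 0.14 (SD, n = 8; exact permutation p = 0.0234, adjusted p = 0.0293), narrower in the stretch on 7 of 8 arrays. That call was lost with loess normalisation within arrays (-0.018, adjusted p = 0.797) and with the authors' values (-0.10, adjusted p = 0.0586) and without heifer 1, 3, 4, 5, 6 or 8 (-0.15 to -0.10, adjusted p = 0.0586 each), and the direction turned over probes well above background in both channels (0.056, adjusted p = 0.716). The probes of the stretch were also brighter. Their mean input signal exceeded that of other probes by 0.19 ± 0.08 (SD, n = 8; exact permutation p = 0.0078, adjusted p = 0.0195), with 8 of 8 arrays above 0. This excess turned to -0.036 (adjusted p = 0.156) over probes well above background in both channels. The share of probes well above background in the enriched channel was higher by 2.09 ± 1.47 percentage points (SD, n = 8; exact permutation p = 0.0078, adjusted p = 0.0195), again on 8 of 8 arrays. All arrays carry the same probes, so the sign-flip tests measure how well a difference repeats over arrays. They do not measure whether it exceeds the variation among probes.

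Along the stretch a straight line fitted to the ratio sloped down on average, but the fall was not steady. The slope per 100000 bp was -0.02, 0.01, -0.08 and -0.26 in high-gain heifers 1 to 4 and -0.08, -0.47, -0.17 and -0.25 in low-gain heifers 5 to 8. It was below 0 on 7 of 8 arrays and averaged -0.17 ± 0.16 (SD, n = 8; exact permutation p = 0.0156, adjusted p = 0.0260). The steepest slope was that of low-gain heifer 6, and the high-gain heifers 1 and 2 were nearly flat. Without the last 10000-bp window (18 probes) the slope was -0.072 ± 0.11 (SD, n = 8; exact permutation p = 0.0703, adjusted p = 0.0879), so the last window moved its size. Without the first window (14 probes) it kept its size at -0.16 ± 0.23 (SD, n = 8) but varied more between arrays and did not pass (exact permutation p = 0.0938, adjusted p = 0.117). Without the probes of the 3 runs it was -0.14 ± 0.12 (SD, n = 8; exact permutation p = 0.0078, adjusted p = 0.0130) and below 0 on 8 of 8 arrays. All of these settings were added after the values were seen. The call was also lost without heifer 1, 3, 4, 5, 6 or 8, at slopes of -0.19 to -0.12 (exact permutation, adjusted p = 0.0521 each), and over probes well above background in both channels (-0.23, adjusted p = 0.156). The highest of the 18 windows began at 65731186 (6 probes) with 0.39 ± 0.43 (SD, n = 8), and the lowest began at 65891186 (18 probes) with -0.62 ± 0.50 (SD, n = 8). In the lowest window the ratio was below 0 on 8 of 8 arrays, from -0.61 to -0.12 in the high-gain and from -1.35 to -0.19 in the low-gain heifers. The window just before it, from 65881186 (22 probes), averaged 0.22 ± 0.13 (SD, n = 8) and was above 0 on 8 of 8 arrays. The means of 11 windows were below 0, and 9 of the 18 were higher in high-gain heifers. After the last one, the next lowest window of the low-gain group with more than a few probes began at 65831186 (26 probes), with a mean of -0.84 ± 0.49 (SD, n = 4) there and -0.18 ± 0.14 (SD, n = 4) in the high-gain group.

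Of the 28 regions, 12 had a positive and 16 a negative level, and 3 passed the test. Region calls above the array median numbered 1 of 28, where 3.33% of all 960 regions were called, and calls below it 2 of 28, where 9.58% were called, so neither share stood apart from the background. Over 7 arrays in turn, the calls above numbered 0 to 4 (4 if low-gain heifer 5 was left out and 0 if heifer 6, 7 or 8 was), and those below 1 to 3. The region called highest covers 65736326 to 65737653 (4 probes). Its ratio was 0.21, 0.60, 0.14 and 1.38 in high-gain heifers 1 to 4 and 0.44, 0.67, 0.54 and 0.43 in low-gain heifers 5 to 8, so every array was above 0 and the groups overlapped throughout. The level was 0.55 with a standard error of 0.14 (limma, adjusted p = 0.0279 over 960 regions), and the enriched and input signals averaged 0.68 and -0.15. The call was lost with normexp background correction (0.15, adjusted p = 0.105) and without low-gain heifer 6, 7 or 8 (0.53, 0.55 and 0.57, adjusted p = 0.0822, 0.0637 and 0.0619). The next regions by level began at 65855514 (0.44), 65721186 (0.41) and 65823489 (0.37) and did not pass here. Of these, 65855514 passed with loess (limma, adjusted p = 0.0127) and without low-gain heifer 5 (0.0431), and 65823489 with normexp (0.0344), with loess (0.0255) and without low-gain heifer 5 (0.0163). With normexp the level at 65721186 was -0.040.

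The region with the lowest ratio was the last, 65895201 to 65899733, with 14 probes. Its ratio was -0.09, -0.20, -0.35 and -0.60 in high-gain heifers 1 to 4 and -0.46, -1.73, -1.56 and -1.85 in low-gain heifers 5 to 8. All 8 arrays lay below 0, with heifers 6, 7 and 8 far below the others and heifer 5 inside the high-gain range. The level was -0.86 with a standard error of 0.15 (limma, adjusted p = 0.00592), the 19th lowest of 960 regions, and it stayed past the threshold in all 14 alternatives, at -1.01 to -0.69. The region was nevertheless bright in both channels, with a mean enriched signal of 1.46 and a mean input signal of 2.02. It contains 1 of the 3 runs that drew attention to the stretch, which are low in the low-gain group. The mean of its 11 probes outside that run was -0.57 ± 0.31 (SD, n = 4) for the high-gain group and -1.27 ± 0.39 (SD, n = 4) for the low-gain group.

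The second region called lower covers 65829051 to 65836343 (21 probes). Its ratio was -0.21, -0.07, -0.52 and 0.10 in high-gain heifers 1 to 4 and 0.06, -1.07, -1.07 and -1.72 in low-gain heifers 5 to 8. The level was -0.56 (standard error 0.17, limma, adjusted p = 0.0459). It too holds a run, and the mean of the 18 probes outside it was -0.32 ± 0.30 (SD, n = 4) for the high-gain group and -0.78 ± 0.70 (SD, n = 4) for the low-gain group. The call was lost with arrays scaled to 1 spread (-0.45, adjusted p = 0.0629) and without any 1 heifer other than low-gain heifer 5, at adjusted p from 0.0569 to 0.127. The regions at 65812184 (-0.42, limma, adjusted p = 0.0542) and 65789498 (-0.40, limma, adjusted p = 0.0851) came next and did not pass here. The former passed with normexp (limma, adjusted p = 0.0114), with the authors' values (0.0343) and with heifer 4 (0.0439) or heifer 5 (0.0253) left out. The latter passed with normexp (limma, adjusted p = 0.0115), loess (0.0450), the authors' values (0.0342), over probes well above background in both channels (0.0246) and without low-gain heifer 7 (0.0478).

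Single probes showed steep local contrasts. The count called above the array median was 2 of 303 (1.31% of all probes on the array were) and below it 13 of 303 (4.23% of all probes), both near the background. These numbers were 21 and 35 if low-gain heifer 5 was left out, 1 and 2 if low-gain heifer 6 was, and 0 and 2 if low-gain heifer 7 was. The lowest was the probe starting at 65790811, which is 49 bases long. Its ratio was -3.44, -2.59 and -3.81 in high-gain heifers 1, 2 and 4, and -3.79, -2.91, -2.82 and -4.14 in low-gain heifers 5 to 8. The spot of high-gain heifer 3 was an outlier and was left out. All 7 values lay far below the neighbouring probes at 65790101, 65790435 and 65791244, whose levels were -0.12, -0.12 and 0.18. The level was -3.35 with a standard error of 0.27 (limma, adjusted p = 0.000524 over 10249 probes), the 12th lowest on the array. It was among the brightest probes of the stretch, at 5.93 in the input and 2.84 in the enriched channel. Without it, a choice made after its values were seen, the region at 65789498 moved from -0.40 to 0.11 ± 0.57 (SD, n = 8). The high-gain mean was then -0.28 ± 0.28 (SD, n = 4), with values of -0.69 to -0.11. The low-gain mean was 0.49 ± 0.55 (SD, n = 4), with values of 0.07 to 1.29. The low level over both groups thus rested on this probe, while the high-gain heifers stayed below 0 without it. The region value of high-gain heifer 3 never included the probe.

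The probe at 65769873 was low on 8 of 8 arrays, from -3.59 to -1.74, with a level of -2.28 (standard error 0.26, limma, adjusted p = 0.00269). It was well above background on 8 arrays in input but on 0 in the enriched channel, so only a bound can be set on its enriched signal. Next lowest was the probe at 65896740 (-2.07, limma, adjusted p = 0.0467), in the last region. The called probes at 65834288, 65834924 and 65835324 (-1.95, -1.84 and -1.74) lie side by side in the region at 65829051 and outside its run. In all, the 13 lower probes ranged from -3.35 to -1.03, 6 of them had an enriched signal well above background on all arrays, and 2 on none.

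The highest level was that of the probe at 65773223, only a few kb from the low probe at 65769873 and in the same region. Its ratio was 0.91, 1.51, -1.01 and 2.64 in high-gain heifers 1 to 4 and 2.25, 4.35, 2.09 and 3.01 in low-gain heifers 5 to 8, with only high-gain heifer 3 below 0. The level was 1.97 with a standard error of 0.40 (limma, adjusted p = 0.0300), the 10245th of 10249 from the lowest. The probes at 65855772 (1.33) and 65805112 (1.18) came next and did not pass. Each rested on 1 array, with low-gain heifer 7 at 6.85 in the former and low-gain heifer 8 at 5.94 in the latter. The only other probe called above the median, at 65885556 (1.18, limma, adjusted p = 0.0290), reached the limit for well above background in neither channel on any array.

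Between the feeding groups the stretch as a whole differed by about as much as heifers of the same group did. High-gain arrays had a mean ratio of -0.04 ± 0.12 (SD, n = 4) and low-gain arrays one of -0.17 ± 0.13 (SD, n = 4), which are 0.13 apart (standard error 0.12). In the enriched channel alone the difference was 0.07 (standard error 0.16) and in the input channel -0.06 (standard error 0.09). Within slide row 1 the ratio differed by 0.09 and within slide row 2 by 0.17, each with 2 heifers per group. Outside the 9 probes of the runs, 294 probes were left, of which 136 had the higher and 158 the lower mean in the high-gain group, and the difference was 0.06. Over all 303 probes 47.9% were higher in high-gain heifers, against 44.7% of all probes of the array, and the median difference was -0.07 against -0.13. The run probes were picked for a large difference of this sign, so the fall from 0.13 to 0.06 follows from leaving them out, a setting added after the values were seen.

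A run is at least 3 neighbouring probes within 1000 bp of each other, each at unadjusted limma p under 0.05 for the contrast and with the same sign, so choosing by size inflates the values given here. The first run covers 65831805 to 65832423, 110.6 kb from the first probe. Its ratio was -0.09, -0.01, 0.91 and 2.09 in high-gain heifers 1 to 4 and -0.58, -2.19, -2.15 and -2.94 in low-gain heifers 5 to 8. The groups did not overlap, though low-gain heifer 5 lay closer to high-gain heifer 1 than to the other low-gain heifers. The groups were 2.69 apart (standard error 0.53), made up of 2.09 in the enriched channel and -0.60 in the input channel. The gap came to 1.34 in slide row 1 and to 4.05 in slide row 2. Enriched signal was 2.68, 2.80, 4.85 and 5.31 in the high-gain and 2.98, 0.66, 2.02 and 1.63 in the low-gain heifers, so heifer 5 lay inside the high-gain range there. The 18 other probes of its region differed by 0.46.

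The second run covers 65871171 to 65871698, 150.0 kb from the first probe, in the longest region of the stretch (54 probes, 65866641 to 65886921). Its ratio was 0.06, 0.50, 0.09 and 0.67 in high-gain heifers 1 to 4 and -1.97, -2.18, -1.34 and -2.61 in low-gain heifers 5 to 8. Here every high-gain heifer was above and every low-gain heifer below the array median, heifer 5 included. At the probes 65871171 and 65871421 the enriched signals of heifer 5 were not well above background, and its ratios were -3.15 and -1.22. The groups were 2.35 apart (standard error 0.29), and 2.35 in either slide row. The enriched channel differed by 1.99 and the input channel by -0.36, with enriched signals of 0.80 to 2.06 in high-gain and -1.07 to -0.53 in low-gain heifers. The 51 other probes of the region differed by 0.05.

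Those 3 probes did not behave alike. The probe at 65871638 held together within groups, with a high-gain mean of 0.02 ± 0.37 (SD, n = 4) and a low-gain mean of -2.73 ± 1.04 (SD, n = 4). The probe at 65871421 ran from -1.14 to 3.61 over the high-gain heifers and had no enriched signal well above background on any low-gain array. At 65871171 the high-gain values ran from -2.0 to 1.90. In high-gain heifer 4 the values at 65871171 and 65871421 were -2.0 and 3.61, and in heifer 3 they were 1.90 and -1.14, so the narrow spread of the run means in this group is an average of opposite departures. Raising dim enriched signals on all arrays of both groups to the lowest signal well above background on their array brought the run difference to 2.06. Normexp brought it to 1.12.

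The last run covers 65897495 to 65898115, 176.3 kb from the first probe, in the last and lowest region. Its ratio was 0.60, 0.57, 0.57 and 0.85 in high-gain heifers 1 to 4 and 0.33, -2.86, -1.79 and -3.23 in low-gain heifers 5 to 8. The groups did not overlap, but low-gain heifer 5 was 0.32 under the high-gain mean, while heifers 6, 7 and 8 averaged -2.63. The group means were 2.53 apart (standard error 0.59), with 1.94 from the enriched channel and -0.59 from the input channel. The gap came to 1.85 in slide row 1 and to 3.22 in slide row 2. Enriched signal was 4.34, 4.90, 5.04 and 4.69 in the high-gain and 4.93, 1.89, 2.55 and 1.84 in the low-gain heifers. Heifer 5 had the second highest of the 8 values, so the enriched signals of the groups overlapped. The 11 other probes of the region differed by 0.69.

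Without low-gain heifer 5 the differences of the 3 runs were 3.15, 2.37 and 3.27. At the second run heifer 5 lay 2.29 under the high-gain mean, against 1.31 at the first and 0.32 at the last. Its value at the second run includes the dim spots named above. Leaving out any 1 of the 8 heifers gave 2.24 to 3.15, 2.16 to 2.58 and 2.09 to 3.27, and loess gave 1.72, 2.00 and 1.63. The ratios were more spread on low-gain arrays. The interval between their quartiles in the stretch averaged 1.18 in the high-gain and 1.75 in the low-gain group, and 1.32 and 1.88 over the other probes. With arrays scaled to 1 spread the run differences were 2.03, 2.04 and 2.09. All the runs were higher in high-gain heifers, as were 9 of the 13 on the array.

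Over whole regions, the groups were separated at 1 of 28, lower in high-gain heifers, and at 0 of 28 in the other direction. On the array 3.65% and 2.6% of regions were separated in these directions. That region covers 65855514 to 65856559 (4 probes). Its ratio was -0.17, 0.12, 0.07 and -0.13 in high-gain heifers 1 to 4 and 0.48, 0.68, 1.98 and 0.52 in low-gain heifers 5 to 8. High-gain minus low-gain was -0.94 (standard error 0.32), with -0.71 from the enriched and 0.24 from the input channel, and 37.5% of its spots were well above background in the enriched channel. Low-gain heifer 7 owed its value to the probe at 65855772. Without this probe, left out after its values were seen, the difference was -0.89, the highest high-gain value being 0.21 and the lowest low-gain value 0.35.

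By single probes, the groups were separated at 7 of the 302 with a value on every array in the direction of high-gain above low-gain (2.67% of all probes) and at 11 of 302 in the opposite direction (4.2%). The 7 higher probes had differences of 1.22 to 3.16 and were bright, 6 of them with a mean input signal over 2. The 11 lower probes had differences of -2.07 to -0.58, and 7 of them had a mean input signal under -1. In the enriched channel alone 6 probes were separated upward (1.71% of all probes) and 4 downward (3.27%), and in the input channel 4 upward (1.29%) and 8 downward (1.7%).

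The group difference moved with the brightness of the probe. Of the 9 probes of the runs, 7 had a mean input signal over 2, as had 58 of the 303 probes (19.1%, against 19.2% of all other probes of the array). Over these 58 probes the high-gain mean was 0.03 ± 0.23 (SD, n = 4) and the low-gain mean -1.03 ± 0.71 (SD, n = 4), which are 1.05 apart. Low-gain heifer 5, at -0.08, fell within the high-gain values of -0.31 to 0.21, and heifers 6, 7 and 8 lay between -1.77 and -1.03. Outside the runs the 51 bright probes of the stretch still differed by 0.84, and the 1910 bright probes of the rest of the array differed by 0.66. At the dim end, the 96 probes with a mean input signal under -1 differed the other way, by -0.43, and the 3326 such probes elsewhere by -0.48. From the dimmest to the brightest class the low-gain mean fell from 0.35 to -0.89 in the stretch outside its runs. Over the rest of the array it fell from 0.41 to -0.72. Between these classes low-gain heifer 5 moved little, from 0.01 to -0.04 in the stretch outside its runs and from -0.05 to -0.12 elsewhere. In the stretch outside its runs heifers 6, 7 and 8 lay between 0.25 and 0.61 in the dimmest class. In the brightest they lay between -1.58 and -0.89. The high-gain means of the 5 classes stayed between -0.09 and 0.02 in the stretch outside its runs. The part of this array-wide pattern in the runs was not tested.

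Adjacent probes moved together in the contrast. Over the 163 pairs of neighbours in the stretch with starts at most 400 bp apart, the differences correlated at 0.47, against 0.17 over 5031 such pairs elsewhere, and at 0.33 over the 152 pairs outside the runs. Their levels correlated at 0.26, against 0.24 elsewhere. From 401 to 1000 bp the correlation of the differences was 0.09 over 108 pairs. The stretch was chosen for its runs of neighbours with like differences, so the 0.47 is inflated by that choice. The 0.33 still includes probes that lie beside the runs. Neighbours share fragments of DNA and base composition, and these correlations are descriptions across pairs of probes.

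The probes of the stretch were shorter than those of the rest of the array. Probes of 46 bases made up 49.2% of the stretch and 35.3% of the other probes, and those of 61 bases 17.5% and 36.1%. The 53 probes of 61 bases had a mean ratio of -0.49 ± 0.52 (SD, n = 8), with -0.11 ± 0.16 (SD, n = 4) for the high-gain group and -0.86 ± 0.49 (SD, n = 4) for the low-gain group. The 149 probes of 46 bases averaged 0.05 ± 0.17 (SD, n = 8), with -0.02 ± 0.15 (SD, n = 4) and 0.12 ± 0.17 (SD, n = 4). The longest probes were also the brightest, with a mean input signal of 1.04 against 0.14 for the shortest, and the part of length in the levels was not tested.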

How the data were processed

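The file headers name Agilent Feature Extraction version 10.7.1.1 and its protocol ChIP_107_Sep09 for the 8 arrays, and place the probes on Btau_3.1. The deposited intensity values used here are the processed red and green signals, already background-subtracted and dye-normalised by that software per the file headers. The authors' table of log2 ratios, neither centred nor dye-normalised, served as an alternative. These authors' values could be recomputed, within 0.0001, from median signals less background wherever both were positive.

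The log2 ratio of enriched over input signal was taken at 10249 non-control probes after removal of 28 outlier spots, less the median of the array. Dyes were not swapped, so any shared dye effect remains in every level. Only an effect that is the same on all arrays cancels between groups, and whether it was the same was not tested. All arrays lay on 1 slide with 1 scan date, and each slide row held 2 heifers of each group. The labels name no batch of capture or labelling. Levels against the array median were tested with limma 3.58.1 in R 4.3.3 (mean of both group means, two-sided, Benjamini-Hochberg over all probes, 960 regions or 97 loci of at least 10 probes with gaps of at most 20000 bp, threshold 0.05), and single values per array with exact sign-flip permutation tests. The steps were tested on simulated data. Alternatives were normexp background correction (offset 50, on median signals), loess, equal spread of arrays, the authors' values, a filter on dim probes, slide row, a gap of 500 bp and each heifer left out.

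Named were all runs, the 4 highest and 4 lowest regions, the 3 highest and 3 lowest probes, the highest and lowest window, and regions whose groups did not overlap. Other called probes were named after their values were seen. The bounds of the stretch, the probes and this rule were chosen with earlier results of these data known. Sequences of probes and the genes around them are not analysed here.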

Additional observations from a re-analysis of the deposited data

Results flagged for a closer look

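Of 42 sets of 4 heifers checked for a single value apart from the rest, 4 held one, and chance alone gives about 1 in 20. The interval between the quartiles of the ratios, stretch minus other probes, was -0.40 in high-gain heifer 4 and -0.10 to -0.03 in the other high-gain heifers. At the run from 65897495, high-gain heifer 4 lay at 0.85 and the others at 0.57 to 0.60. At the region from 65855514, low-gain heifer 7 lay at 1.98 and the others at 0.48 to 0.68. At the region from 65721186, high-gain heifer 2 lay at -0.14 and the others at 0.63 to 0.73. The run from 65871171 had every high-gain heifer above the array median (mean 0.33) and every low-gain heifer below it (mean -2.02), a difference of 2.35, which was not tested because this contrast chose the run.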

How the results depend on the processing

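The last region (65895201) stayed below the array median in every alternative run. With normexp the level of the stretch was -0.14 (limma, adjusted p = 0.00906), with 6 regions lower, 15 probes higher and 33 lower. Loess gave 5 regions and 5 probes higher, a quartile interval of -0.018 (adjusted p = 0.797) and a group difference of 0.0028. Arrays scaled to 1 spread gave 1 region and 8 probes lower and a group difference of 0.062. The authors' values gave 4 regions lower, 1 probe higher, 5 lower and a quartile interval of -0.10 (adjusted p = 0.0586). Over probes well above background in both channels, 0 regions were higher and 6 probes lower, the slope was -0.23 (adjusted p = 0.156), the quartile interval turned to 0.056 and the input excess to -0.036. Slide row as a block gave 2 regions and 7 probes higher. Within slide row 1 the ratio minus that of other probes was -0.014. With normexp the region at 65721186 turned to -0.040. The slope was -0.072 (adjusted p = 0.0879) without the last and -0.16 (adjusted p = 0.117) without the first window. It was -0.14 (exact permutation, adjusted p = 0.0130) without the probes of the 3 runs. The causes were not tested.

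Leaving out each heifer in turn gave 0 to 4 regions higher and 1 to 3 lower, 0 to 21 probes higher and 2 to 35 lower, a slope of -0.19 to -0.12, a quartile interval of -0.17 to -0.10 and a ratio minus that of other probes of -0.034 to 0.029, which was -0.0020 without high-gain heifer 1. The slope's adjusted p (exact permutation) was 0.0521 without heifer 1, 3, 4, 5, 6 or 8, but 0.0260 without heifer 2 and 0.0391 without heifer 7. Each of these settings has 1 array fewer and so allows fewer sign flips. No paired analysis was possible because the groups are different heifers and the labels match none of them across groups. The number of arrays and dim enriched signals limit the precision, the latter most in low-gain heifer 8.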
